A study of Homo sapiens with 10 samples.

Results

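The 10 genes described here form an unbroken run of zinc finger genes on chromosome 19: *ZNF577*, *ZNF649*, *ZNF613*, *ZNF350*, *ZNF615*, *ZNF614*, *ZNF432*, *ZNF841*, *ZNF616* and *ZNF836*. *ZNF432* was chosen by its measured fall in *ZMAT3*-KO against *ZMAT3*-WT cells, and the others by their position beside it. Of the 10 members, 8 had values among the 13029 genes of the *ZMAT3* experiment and 6 among the 17642 genes of the siRNA experiment, and those 6 had values in both. *ZNF841* and *ZNF836* had no row in either table, and *ZNF432* and *ZNF615* had none in the siRNA table, so these are not analysed there.

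RNA-seq was performed on 10 libraries of HCT116, a human colorectal cancer cell line. The first experiment compared 3 *ZMAT3*-WT with 3 *ZMAT3*-KO libraries, and the second 2 libraries from cells given a control siRNA (siCTRL) with 2 from cells given a pool of 4 siRNAs against p53 (sip53). Per the labels, no drug was given in any group. *ZMAT3* encodes an RNA-binding protein that p53 induces, and its knockout was made with Cas9 and a pair of guide RNAs around the p53 response element in an intron of *ZMAT3*; both genotypes were grown from single cells and the knockout is 1 clone, so the clone and the loss of ZMAT3 cannot be told apart in any difference below. The *ZMAT3* labels also carry the abbreviations EV and unt, which are not explained in the sources used here.

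Most of these genes encode KRAB zinc finger proteins. In such a protein a row of C2H2 fingers, each folded around a zinc ion, reads a DNA sequence, and the KRAB domain recruits TRIM28 (KAP1), which brings SETDB1, a histone H3 lysine 9 methyltransferase, and HP1 proteins that keep chromatin closed. The family is large, arose by repeated duplication of neighbouring genes, and fills much of human chromosome 19, which is why neighbours often resemble each other in sequence. *ZNF432* has been linked to DNA repair, *ZNF350* (ZBRK1) encodes a partner of BRCA1 that represses *GADD45A*, and *ZNF649* encodes a repressor.

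On hg38 in GENCODE release 44, the *ZNF577* gene starts the run at position 51804816 and *ZNF836* ends it at 52171643. All members lie on the minus strand but *ZNF613*, which lies on the plus strand. The *ZNF432* gene spans 52031378 to 52095738, but its canonical transcript begins at 52048838; the longer span comes from a transcript that begins close to the start of *ZNF841*, so the 2 genes overlap on the same strand. Distances below were measured from the start of the canonical transcript of *ZNF432*, with positive distances toward *ZNF836*. *ZNF614* began at -20.5 kb and *ZNF615* at -40.6 kb, *ZNF350* at -62.0 kb, *ZNF613* at -121.4 kb, *ZNF649* at -143.8 kb and *ZNF577* at -160.9 kb. On the other side *ZNF616* began at 91.1 kb. The predicted proteins held from 7 matches to a C2H2 finger pattern in *ZNF577* to 24 in *ZNF836*, with 16 in *ZNF432* and 19 in *ZNF615*.

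The stretch upstream of *ZNF432* is shown beside the most similar one, that of *ZNF615*, the 1 neighbour with values whose *ZMAT3*-KO libraries were also all lower. The next most similar are shown too. The 4 sequences below are 60 bases each, upstream of the RefSeq start (GRCh38.p14), 5′ to 3′ on the strand of the gene. In the first, capitals mark AAGATGGC, letters that the zinc finger protein YY1 can bind. In the others, capitals mark bases identical to *ZNF432* at the same place.
ZNF432, chr19:52048879-52048938, minus strand: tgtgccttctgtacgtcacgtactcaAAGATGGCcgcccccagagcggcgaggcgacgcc
ZNF615, chr19:52008255-52008314, minus strand: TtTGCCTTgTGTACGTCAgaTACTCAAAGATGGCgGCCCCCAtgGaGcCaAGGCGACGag
ZNF613, chr19:51927317-51927376, plus strand: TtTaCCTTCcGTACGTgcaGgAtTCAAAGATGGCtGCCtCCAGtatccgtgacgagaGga
ZNF350, chr19:51986949-51987008, minus strand: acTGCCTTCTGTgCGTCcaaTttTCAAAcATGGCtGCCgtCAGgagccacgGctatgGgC

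Compared without gaps and on the gene's strand, *ZNF615* shared 48 of the 60 bases with *ZNF432* (80.0%). Among 35116 windows of 250 bases upstream of RefSeq starts, no window but that of *ZNF432* itself held a stretch as similar. *ZNF613* and *ZNF350* shared 34 bases each (56.7%), a likeness that 6 windows (0.0171%) reached, counting those of *ZNF432* and *ZNF615*. *ZNF577* shared 28 bases, which 11.4% of windows reached, and *ZNF614*, *ZNF841*, *ZNF616* and *ZNF836* shared 26, which 43.2% reached. *ZNF649* had no window in the table. The stretch and the motif were chosen after the upstream sequences had been seen.

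AAGATGGC, searched on both strands, was found upstream of *ZNF432*, *ZNF615*, *ZNF613* and *ZNF614*, against 1.36% of all windows, and in *ZNF614* it lay in the opposite orientation. By gene, it was present for 14 of 508 ZNF genes (2.76%) and for 434 of 26797 other genes (1.62%). TGAGTCA, the AP-1 site, was in no member's window and in 4.2% of all windows. The window upstream of *ZNF432* held 22 CpG dinucleotides, against a median of 11, and its ratio of observed to predicted CpG was 0.932, above that of 85.0% of windows. *ZNF432* was the only member with the ETS letters CCGGAAG upstream of a RefSeq start, letters that 8.52% of all windows held. A match says only that the letters are there. *ZNF613* and *ZNF614*, which also hold AAGATGGC, had log2 differences (*ZMAT3*-KO minus *ZMAT3*-WT) of 0.09 and -0.04. *ZNF350*, as similar to *ZNF432* as *ZNF613* was, differed by 0.07. Any link between these sequences and the levels was not tested.

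The knockout labels held: *ZMAT3* was at 5.00, 5.20 and 5.26 log2 CPM in *ZMAT3*-WT and at 2.25, 2.34 and 2.20 in *ZMAT3*-KO libraries, a log2 difference of -2.89 (limma adjusted p = 3.76e-12). In sip53 libraries *CDKN1A*, which encodes p21, went from 525.01 and 481.06 FPKM in siCTRL to 34.2 and 37.7 FPKM (limma adjusted p = 0.00869). Log2 CPM is the log2 of reads scaled to a common library total; FPKM also divides by transcript length. The *ZMAT3* libraries had been given 1 common distribution before deposition, and the siRNA libraries summed to between 708634 and 829230 FPKM, so the depth of every library is unknown. Of 8 colorectal epithelial markers 6 had values in both tables, and CEACAM5 and LGALS4 had no row. Their summed level was 5757 to 6083 CPM in *ZMAT3*-WT and 3160 to 3242 CPM in *ZMAT3*-KO libraries. It was 3737 to 3972 FPKM in siCTRL and 3532 to 4169 FPKM in sip53 libraries. In *ZMAT3*-KO libraries *KRT8*, *KRT18* and *KRT19* were lower past an adjusted p of 0.05 (limma) and 1.5-fold, as were 4.37% of all genes. By value 4 of the 6 were lower and 2 higher, the highest log2 difference being 0.05. With sip53 *EPCAM* was higher at an unadjusted p of 0.05 (limma), a level passed in either direction by 15.1% of all genes tested. Of the leukocyte, fibroblast and endothelial markers, 1 of 11 had values in the *ZMAT3* table, *COL1A1*, at 9.16 to 9.79 CPM in *ZMAT3*-WT and 10.4 to 10.9 CPM in *ZMAT3*-KO libraries. After siRNA transfection 3 of the 11 had values: *LYZ* at 1.83 to 2.86 FPKM in siCTRL and 0.74 to 1.74 FPKM in sip53 libraries, *COL1A1* at 4.08 to 5.41 and 5.96 to 7.06 FPKM, and *VWF* at no more than 0.16 FPKM. The part of the keratin difference in the results below was not tested.

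*ZNF432* was at a low level in *ZMAT3*-WT cells and at the bottom of the table in *ZMAT3*-KO cells. Its values were 0.27, 0.40 and 0.98 log2 CPM in the *ZMAT3*-WT libraries, a mean of 0.55 ± 0.38 (SD, n = 3). In each of the 3 *ZMAT3*-KO libraries it was at -6.62 log2 CPM, the lowest value of the table. Because these libraries had been given 1 common distribution, that value cannot be turned into a number of reads, and no lower bound on the fold was drawn from it. The fitted log2 difference was -7.17 (standard error 0.61), and it depends on that lowest value: with 1 CPM added to every value it was -1.29. In linear terms its level was 1.497 ± 0.411 CPM (SD, n = 3) in *ZMAT3*-WT and 0.010 CPM in *ZMAT3*-KO libraries, and 5.42% of genes had a lower mean in *ZMAT3*-WT cells.

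Between 5 and 8 genes per library were at the lowest value, and only *ZNF432* and *HBG2* were there in all 3 *ZMAT3*-KO libraries. In bulk RNA, fewer cells with a transcript and less of it per cell cannot be told apart. Because *ZNF432* was chosen on this contrast, these values are a description. No stretch of 100 bases of its canonical transcript, of 4538, was present in the transcripts of another gene, and 17 of 4588 stretches of 50 bases (0.371%) were. Of the *ZNF841* transcript, 65 of 3778 stretches of 100 bases (1.72%) were present in transcripts of *ZNF432*, so some reads could belong to either gene.

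**Figure D1:**
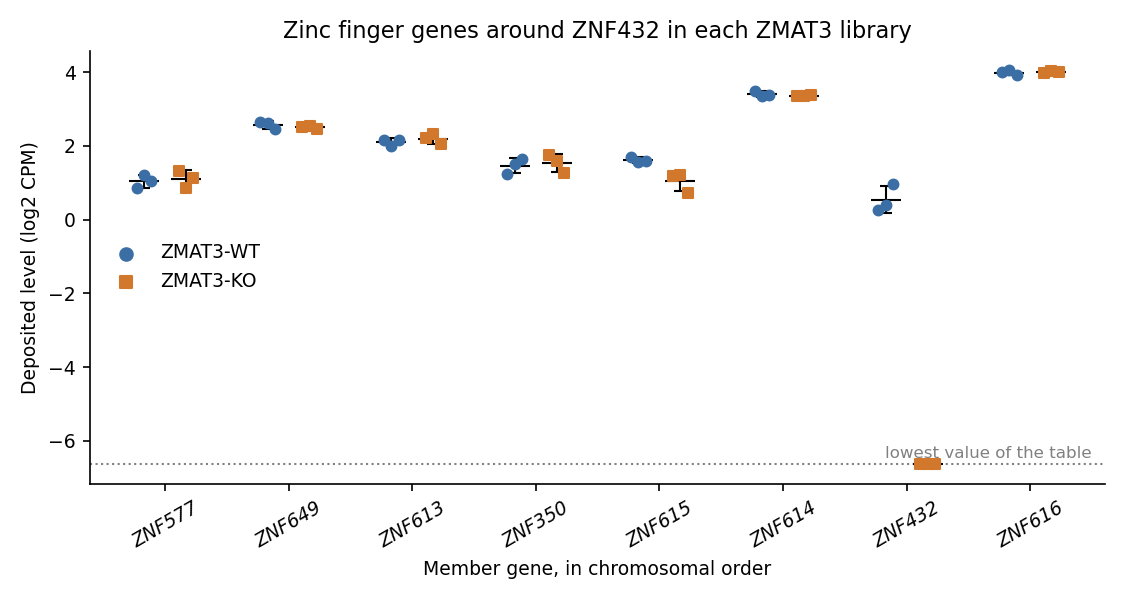
Deposited log2 CPM of the 8 members with values in each *ZMAT3*-WT (circles) and *ZMAT3*-KO (squares) library, with the mean and SD of 3 libraries; genes are in chromosomal order. *ZNF432* drops from between 0.27 and 0.98 to -6.62, the 2 groups of *ZNF615* are apart by far less, and the other 6 genes overlap between groups.

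*ZNF615* was the other member whose groups did not overlap. It was at 1.70, 1.56 and 1.60 log2 CPM in *ZMAT3*-WT libraries (mean 1.62 ± 0.07, SD, n = 3) and at 1.179, 1.209 and 0.731 in *ZMAT3*-KO libraries (mean 1.04 ± 0.27, SD, n = 3). All 3 *ZMAT3*-KO libraries were lower than every *ZMAT3*-WT library. The log2 difference was -0.58 (standard error 0.14, 95% confidence interval -0.88 to -0.28), 1.49-fold lower and just under the 1.5-fold that the study's threshold asks for. *ZMAT3*-KO replicate 3 set much of it: without that library the log2 difference was -0.43, and without *ZMAT3*-WT replicate 1 -0.54. Leaving out any 1 of the other 4 libraries gave between -0.67 and -0.59, past 1.5-fold. No stretch of 100 bases of the *ZNF615* transcript was shared with another gene.

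The gene between *ZNF615* and *ZNF432* did not follow them. *ZNF614* was at 3.50, 3.34 and 3.37 log2 CPM in *ZMAT3*-WT and at 3.37, 3.35 and 3.37 in *ZMAT3*-KO libraries, a log2 difference of -0.04 (95% confidence interval -0.17 to 0.09). The nearest member with values on the other side was as level. *ZNF616* was at 3.99, 4.05 and 3.93 in *ZMAT3*-WT and at 3.98, 4.05 and 4.01 in *ZMAT3*-KO libraries, a log2 difference of 0.02 (95% confidence interval -0.09 to 0.13). *ZNF841*, which lies between *ZNF432* and *ZNF616* and overlaps the *ZNF432* gene, is not analysed here.

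Farther along, *ZNF350*, the BRCA1 partner, was at 1.24, 1.499 and 1.66 log2 CPM in *ZMAT3*-WT and at 1.76, 1.60 and 1.26 in *ZMAT3*-KO libraries. *ZNF613* was at 2.17, 2.00 and 2.15 and at 2.21, 2.32 and 2.06. In both genes the 2 groups covered much the same range. *ZNF649* was at 2.64, 2.63 and 2.45 in *ZMAT3*-WT and at 2.51, 2.55 and 2.47 in *ZMAT3*-KO libraries. *ZNF577*, at the end of the run, was at 0.85, 1.22 and 1.05 and at 1.32, 0.86 and 1.14. The log2 differences of these 4 genes lay between -0.06 (*ZNF649*) and 0.09 (*ZNF613*), and in each gene the difference was smaller than the larger SD of its groups.

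Across the 7 neighbours with values the median log2 difference was 0.02, against -0.01 over all 13029 genes, with 4 above and 3 below 0. For the 6 other than *ZNF615*, the 95% confidence intervals together ran from -0.26 to 0.39, so at that confidence a fall of over 1.19-fold lay outside the interval of each. Of the 8 members, 1 (*ZNF432*) was called lower at an adjusted p of 0.05 and 1.5-fold, as were 4.37% of all genes, and 2 (*ZNF432* and *ZNF615*) passed the adjusted p alone, as did 30.1% of all genes in that direction. The same 2 members were lower with no overlap between groups, as were 32.9% of all genes. Since *ZNF432* was chosen on this contrast, nothing is read from these counts.

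Levels between genes can be compared per length of the canonical transcript. In *ZMAT3*-WT libraries *ZNF616* was highest, at 3.65 ± 0.15 CPM per kb (SD, n = 3), followed by *ZNF614* at 2.29 ± 0.14, *ZNF649* at 1.87 ± 0.14, *ZNF613* at 1.37 ± 0.09 and *ZNF350* at 1.181 ± 0.169. *ZNF615* came next at 0.755 ± 0.039 CPM per kb, then *ZNF432* at 0.323 ± 0.089 and *ZNF577* at 0.249 ± 0.032. *ZNF613* and *ZNF350* overlapped in this order, as did *ZNF432* and *ZNF577*, while every other pair of neighbours in the order was apart. The place of *ZNF577* rests on a canonical transcript of 8291 bases, the longest of the members.

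The question of how far the loss reached along the chromosome can also be put to the genes around the run. Within 1 Mb of the start of *ZNF432*, 19 non-member genes had values in the *ZMAT3* table. Their log2 differences had a median of 0.02, with 10 above and 9 below 0. The nearest on the proximal side, *ZNF175* at -477.6 kb, differed by 0.14 (95% confidence interval 0.003 to 0.28), and the nearest on the distal side, *PPP2R1A* at 141.2 kb, which encodes a scaffold subunit of protein phosphatase 2A, by 0.19 (0.13 to 0.25). Neither of these nearest genes with values was lower in *ZMAT3*-KO cells. Genes between *ZNF175* and the run, such as *FPR1* at -297.0 kb, had no values there.

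Of those 19 genes 3 were called, all lower and all distal, against 8.96% of all genes called in either direction. *ZNF701*, at 521.4 kb, was at 2.74, 2.82 and 2.86 log2 CPM in *ZMAT3*-WT and at 2.16, 2.26 and 2.04 in *ZMAT3*-KO libraries (log2 difference -0.66, limma adjusted p = 1.83e-05). *ZNF320*, at 848.8 kb, was at 1.95, 0.69 and -0.27 and at -0.88, -0.92 and -1.20 (log2 difference -1.79, limma adjusted p = 0.00232). Its *ZMAT3*-WT libraries were spread more widely than those of any member, and without replicate 1 of them the log2 difference was -1.21. *ZNF321P*, a pseudogene at 880.6 kb, was at -0.21, 0.30 and 0.15 and at -0.56, -0.33 and -0.98 (log2 difference -0.71, limma adjusted p = 0.0201). That call was lost without *ZMAT3*-WT replicate 2 (limma adjusted p = 0.0816), *ZMAT3*-WT replicate 3 (0.0557) or *ZMAT3*-KO replicate 3 (0.0791). With the 1.5-fold threshold, genes called lower had genes that were not called between them. *ZNF83*, *ZNF611*, *ZNF600*, *ZNF28* and *ZNF468* lie between *ZNF701* and *ZNF320* and differed by -0.19 to 0.02. Of these *ZNF600* (-0.19) was lower by the adjusted p alone (limma adjusted p = 0.0111). *ZNF888*, at 874.6 kb between *ZNF320* and *ZNF321P*, differed by 0.27.

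**Figure D2:**
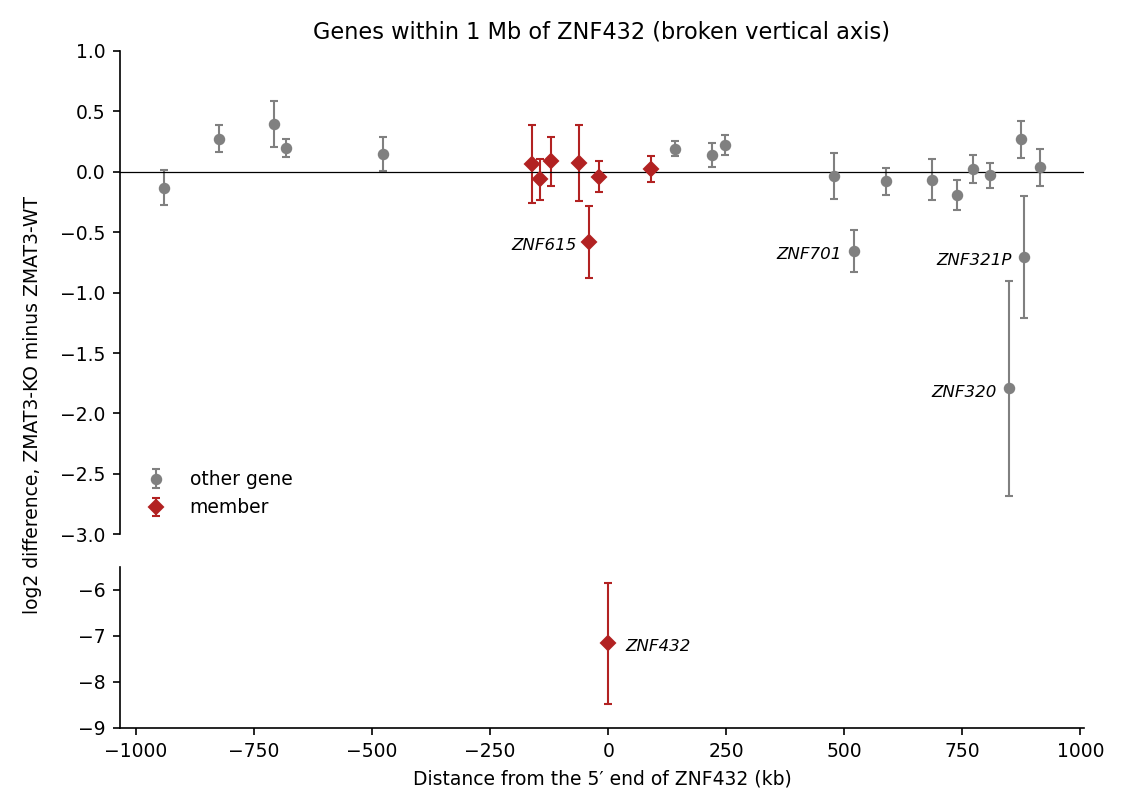
Log2 difference (*ZMAT3*-KO minus *ZMAT3*-WT) with its 95% confidence interval for the 27 genes with values within 1 Mb of *ZNF432*, by distance in kb of each transcript's start; members are diamonds and the vertical axis is broken. *ZNF432* stands at -7.17, *ZNF615* at -0.58, and 3 non-members are called lower at 521.4, 848.8 and 880.6 kb.

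A list of 27 zinc finger genes distal to *PPP2R1A* on 19q13.41 reached farther along the chromosome. Values were present in the *ZMAT3* experiment for 16, of which 2 were called lower (*ZNF701* and *ZNF320*) and 0 higher. Of all genes 8.96% were called in either direction and 4.37% lower. The median log2 difference of the 16 was -0.03. With the adjusted p alone (limma, no fold), 5 were higher and 3 lower, against 3734 and 3925 of all 13029 genes. The antisense genes ZNF649-AS1 and ZNF350-AS1 had no row in either table. How the siRNA reads were counted by strand is not given in the sources used here, so in that table reads of *ZNF577*, *ZNF649* and *ZNF350* cannot be told from those of the antisense gene over each. *ZNF649* also shared 21 of its 3093 stretches of 100 bases (0.679%) with *ZNF577*, and *ZNF614* 23 of 4529 (0.508%) with an unnamed gene elsewhere in the genome.

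Over all 377 genes of the *ZMAT3* table whose symbol is ZNF and a number, the median log2 difference was 0.10, with 20 called higher and 10 lower. That was 7.96% of them, against 8.96% of all genes called in either direction. On the deposited scale *ZNF432* was the most reduced of the 377, followed by *ZNF804A* at -5.45, but with 1 CPM added to every value *ZNF804A*, at -2.68, came before *ZNF432*, at -1.29. Among all 13029 genes *ZNF432* had rank 7 from the bottom, and rank 70 with 1 CPM added. Since *ZNF432* was chosen by its fall in this contrast, its ranks are a description only. *ZNF615* had rank 11 of the 377 on both scales. The log2 difference of *ZNF615* was exceeded in size by 9.30% of all genes.

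**Figure D3:**
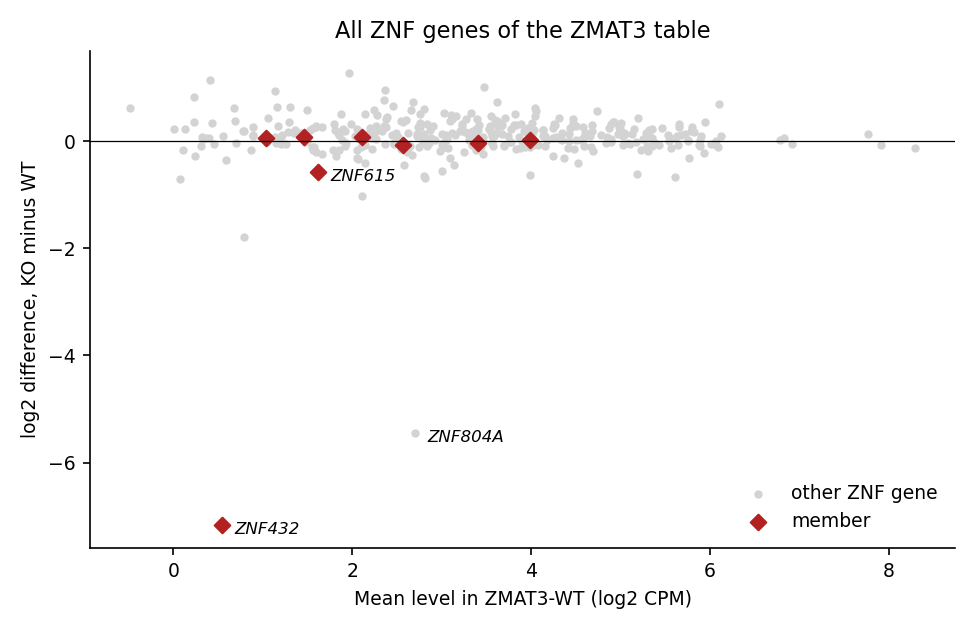
Log2 difference (*ZMAT3*-KO minus *ZMAT3*-WT) against the mean log2 CPM in *ZMAT3*-WT for the 377 ZNF genes of the table; the 8 members are diamonds. *ZNF432* is the lowest point at -7.17, *ZNF804A* is at -5.45 and the members other than *ZNF432* and *ZNF615* lie between -0.06 and 0.09.

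The genes whose pattern was most like that of *ZNF432* were found by the mean absolute difference in log2 CPM over the 6 libraries. *HBG2*, a fetal globin gene, was closest at 0.18, followed by *AC104389.4* at 0.71, *SLC40A1*, which encodes the iron exporter ferroportin, at 0.81, *ANO4* at 0.95 and the olfactory receptor gene *OR51B4* at 1.15. *HBG2* was at 0.01, 0.34 and 0.18 log2 CPM in *ZMAT3*-WT libraries and at -6.62 in all 3 *ZMAT3*-KO libraries. None of the 4 with a place in GENCODE release 44 is on chromosome 19: *HBG2* and *OR51B4* are on chromosome 11, *SLC40A1* on chromosome 2 and *ANO4* on chromosome 12. *OR51B4* lies within the annotated span of *HBG2*, so these 2 are not separate places.

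The RNAs of the proteins through which KRAB zinc finger proteins act were also measured. Of 16 genes of this machinery, 16 had values in the *ZMAT3* table and 0 passed both the 1.5-fold threshold and the adjusted p (limma), against 8.96% of all genes. The adjusted p alone was passed by 1 higher gene, *CHD3*, which encodes a chromatin remodeller (log2 difference 0.34, limma adjusted p = 3.13e-06). It was also passed by 5 lower genes, a direction in which 30.1% of all genes passed it. The list's median was -0.01. *TRIM28* was at 10.23, 10.14 and 10.18 log2 CPM in *ZMAT3*-WT and at 10.26, 10.23 and 10.22 in *ZMAT3*-KO libraries. *SETDB1* was at 5.37, 5.19 and 5.34 and at 5.24, 5.31 and 5.19.

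Among genes tied to *ZNF350* and *ZNF432* by function, 5 of 6 had values (*ANGPT1* had no row). *GADD45A*, the repressed target of ZNF350, was at 5.25, 5.22 and 5.25 log2 CPM in *ZMAT3*-WT and at 5.35, 5.23 and 5.30 in *ZMAT3*-KO libraries (log2 difference 0.05, limma adjusted p = 0.272). *BRCA1* differed by -0.20 (limma adjusted p = 0.00183) and *PARP1* by -0.04 (limma adjusted p = 0.17). *HMGA2*, which encodes an architectural chromatin protein, was the only one of the 5 called, against 8.96% of all genes in either direction. It rose from 6.998, 7.079 and 7.076 to 8.13, 8.18 and 8.13 log2 CPM (log2 difference 1.10, limma adjusted p = 1.68e-11).

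The siRNA experiment played no part in choosing the members, so they were tested in it, on log2(FPKM + 0.1), a scale that understates the change of low genes. Per length, *ZNF616* was again highest in siCTRL libraries, at 5.24 and 6.20 FPKM, followed by *ZNF613* at 3.48 and 2.78, *ZNF614* at 2.26 and 2.38, *ZNF649* at 1.64 and 1.25, *ZNF577* at 1.04 and 1.08 and *ZNF350* at 0.36 and 0.38 FPKM. No 2 neighbours in this order overlapped in the siCTRL libraries, which are 2 per gene. The rest of the order differed from that in *ZMAT3*-WT libraries. There *ZNF350* lay above *ZNF577*, and both *ZNF614* and *ZNF649* lay above *ZNF613*. Why the orders differed was not tested. ZNF350 fell short of the mean of 0.5 FPKM needed for the test.

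After p53 knockdown 0 of the 5 tested members were called at an unadjusted p of 0.05 (limma), against 15.1% of all 14274 genes tested, and none passed it after adjustment. This fit treated the libraries as unpaired. A crossed pairing (siCTRL replicate 1 with sip53 replicate 2), added after seeing the data, called 2410 genes higher and 3128 lower. Members were not counted under it. *ZNF614* had the largest difference: it was at 1.85 and 1.32 FPKM in sip53 libraries, both below the siCTRL libraries (log2 fold change -0.54, 95% confidence interval -1.25 to 0.17, limma adjusted p = 0.439). *ZNF613* was at 2.06 and 2.58 FPKM (log2 fold change -0.42, 95% confidence interval -1.06 to 0.23, limma adjusted p = 0.506). *ZNF616* was at 4.23 and 4.71 FPKM (log2 fold change -0.35, 95% confidence interval -0.86 to 0.17, limma adjusted p = 0.487). In these 3 genes, and in *ZNF577*, the sip53 libraries lay below both siCTRL libraries, which held for 26.3% of all genes tested.

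*ZNF577* was at 0.88 and 1.03 FPKM in sip53 libraries (log2 fold change -0.14, limma adjusted p = 0.88). *ZNF649*, at 1.62 and 1.14 FPKM, overlapped its siCTRL values (log2 fold change -0.07, limma adjusted p = 0.945), and so did *ZNF350*, at 0.37 and 0.43 FPKM. Unadjusted limma p-values of the 5 members ranged from 0.111 (*ZNF614*) to 0.841 (*ZNF649*). All 5 had fold changes below 0, though *ZNF649* came to 0.0061 once libraries were centred on the median gene, with a median of -0.35 against -0.04 over all genes tested. The median of the 357 other ZNF genes tested was -0.18, with 240 below 0. The members' confidence intervals reached from -1.25 to 0.76, with 2 libraries a group.

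**Figure D4:**
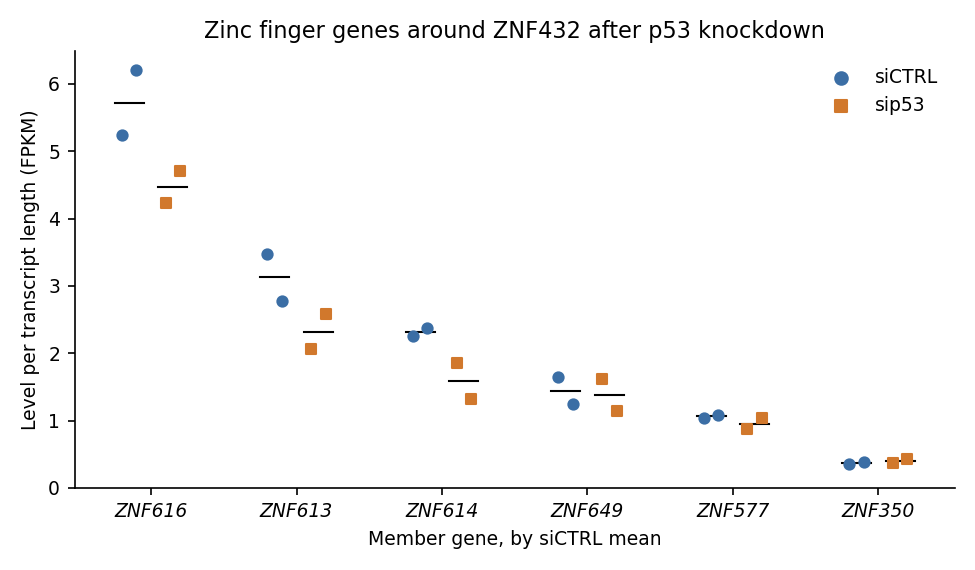
FPKM of the 6 members with values in each siCTRL (circles) and sip53 (squares) library, ordered by siCTRL mean; the short lines are means of 2 libraries. The sip53 points of *ZNF616*, *ZNF613*, *ZNF614* and *ZNF577* lie below their siCTRL points, and no difference passed the unpaired test.

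Around the run, 21 non-member genes within 1 Mb were tested after p53 knockdown and 2 were called, both higher, against 15.1% of all genes tested. *ZNF468* was at 3.25 and 4.45 FPKM in siCTRL and at 6.52 and 5.98 in sip53 libraries (log2 fold change 0.70, limma adjusted p = 0.265). *CLDND2* was at 0.37 and 0.10 and at 0.87 and 0.83 FPKM (log2 fold change 1.63, limma adjusted p = 0.295). Of the 16 distal zinc finger genes tested, *ZNF468* was the only one called, and of the 16 genes of the KRAB machinery *CHD3* was (log2 fold change 0.52, limma adjusted p = 0.273), shares below the 15.1% of all genes called. Unadjusted limma p-values were 0.0276 for *ZNF468*, 0.0369 for *CLDND2* and 0.03 for *CHD3*, and none of the 3 passed after adjustment. By value *CHD3* was also higher in *ZMAT3*-KO libraries, but short of 1.5-fold, and 5 genes of its list passed the adjusted p (limma) there as lower. Nothing is read from this 1 gene of 16. Of the 5 partner and target genes tested 0 were called (limma), with log2 fold changes from -0.21 to 0.02 and unadjusted p from 0.323 to 0.941.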

How the data were processed

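For the *ZMAT3* experiment the authors sequenced stranded libraries, used Cutadapt for trimming, STAR with GENCODE for alignment to hg38 and RSEM for quantification, and deposited log2 CPM; how these were scaled is not given in the sources used here. The siRNA values were deposited without a stated unit and were read as FPKM from the values; their own processing is not given in the sources used here. Per the labels the submitters' notes name CASAVA 1.8.2, TopHat2 2.0.8, FastQC 0.11.2, hg19 and hg38, with no role. The authors' own fold changes and p-values, in the same tables, were not used. Neither table used here holds counts, so depth is unknown and no count model was run.

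Each experiment was fitted over all its genes with limma 3.58.1 in R 4.3.3 (variance trend, two-sided, Benjamini-Hochberg adjustment), because exact permutation of 3 against 3 libraries gives no p below 0.1 and of 2 against 2 none below 0.333. *ZMAT3* calls needed an adjusted p of 0.05 and 1.5-fold; sip53 calls an unadjusted p of 0.05 on log2(FPKM + 0.1), where genes averaging under 0.5 FPKM were left out. P-values measure the spread between these libraries only. The members and lists were chosen with earlier results of these data known. Genes named are the members, targeted genes, nearest and called genes within 1 Mb, called genes of 3 lists (distal zinc finger genes, KRAB machinery, partners and targets) and the 5 most like *ZNF432*. C2H2 matches follow C, 2 to 4 residues, C, 12 residues, H, 3 to 5 residues, H. The fits were tested on simulated data. The level of 1 targeted gene is not reported here. In the *ZMAT3* experiment replicate numbers did not pair samples (correlations of deviations -0.093 to -0.0218). In the siRNA experiment same-numbered libraries deviated in opposite directions (correlation -0.616), and the main fit was unpaired. Figures were drawn with matplotlib.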

Additional observations from a re-analysis of the deposited data

How the results depend on the processing

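*ZNF432* stayed below *ZMAT3*-WT under every alternative that kept it, from -7.31 to -6.96 with single libraries left out. No member was called with sip53 under the alternatives in which members were counted (0 in each). The crossed pairing described below is not among them: the members were fitted under it, but their calls were not counted. The 0 calls therefore do not cover that setting. *ZNF350*, tested only without the filter, had a log2 fold change of 0.09 (limma adjusted p = 0.889). The median of the 7 neighbours ranged from -0.040 to 0.031 with single libraries left out, and fell below 0 without *ZMAT3*-KO replicate 1 (-0.040), *ZMAT3*-WT replicate 1 (-0.028) or *ZMAT3*-WT replicate 3 (-0.0083). *ZNF649* turned sign with sip53, between -0.31 and 0.17 with single libraries left out: 0.0061 with libraries centred on the median gene, 0.11 without siCTRL replicate 1 and 0.17 without sip53 replicate 2. With a pseudocount of 1 CPM 397 genes were called higher in *ZMAT3*-KO, against 599, and with the adjusted p alone 3734 higher and 3925 lower, against 599 and 569. With sip53, 836 genes were called higher and 1325 lower; libraries centred on the median gene gave 1120 higher and 1048 lower, a mean of at least 5 FPKM gave 555 higher, an adjusted p 5 higher and 34 lower, and leaving out single libraries 482 to 720 higher and 635 to 1171 lower, the lowest being without siCTRL replicate 2 (482 and 716) or siCTRL replicate 1 (550 and 635). The replicate number as a block gave 434 higher and 650 lower with sip53 and 603 and 575 in *ZMAT3*-KO; same-numbered siRNA libraries deviated in opposite directions (correlation -0.616), and the crossed pairing, added after seeing the data, gave 2410 and 3128. The cause of these shifts was not tested. With 1 or 2 libraries in an arm, the lone library is assumed to vary like the others. The fitted differences of *ZNF432* rest on the floor of its table and are no bounds.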
